A study of Homo sapiens with 24 samples.

Results

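The nuclear genes of oxidative phosphorylation are described here: the subunits of the mitochondrial respiratory chain and of ATP synthase that are encoded in the cell nucleus. They were taken by gene name, as every gene whose symbol begins with NDUFA, NDUFB, NDUFC, NDUFS or NDUFV and a digit, SDHA to SDHD, CYC1, and every gene whose symbol begins with UQCR, COX4 to COX8 or ATP5. A gene counted as a member when at least 1 of its probes had a detection p under 0.05 on at least 3 of the 24 arrays. This gave 78 members of 13699 detected genes, from 85 genes on the array that bear such a name. The other 7 were COX4I2, COX6A2, COX7A1, COX7B2, COX8C and NDUFS6, detected on 0 arrays, and the antisense gene NDUFB2-AS1, detected on 1. The members nearest the limit were NDUFC2 and COX6B2, each detected on 4 arrays. Of the 78, 34 belong to complex I, 3 to complex II, 9 to complex III, 12 to complex IV and 18 to complex V, and 2 (ATP5F1EP2 and UQCRBP1) are pseudogenes of subunit genes. The 9 genes of complex III include UQCRHL, whose sequence is nearly that of UQCRH, so that their probes may read each other's transcript. No value of expression was used to choose the members apart from detection, and complex II is represented by SDHA, SDHC and SDHD.

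Oxidative phosphorylation makes most of the ATP of a respiring cell. Complexes I and II pass electrons from NADH and succinate to ubiquinone, complex III passes them on to cytochrome c, and complex IV hands them to oxygen. Complexes I, III and IV pump protons across the inner mitochondrial membrane, and complex V, the ATP synthase, lets them flow back through a turning ring of c subunits. Complexes I, III, IV and V also hold subunits encoded by mitochondrial DNA, whose transcription needs nuclear factors such as TFAM. In BRAF-mutant melanoma, inhibition of BRAF has been described to raise oxidative metabolism through MITF and PPARGC1A.

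SKMEL28, a melanoma line, and SW1736, a thyroid cancer line, both labelled with the mutation BRAFV600E, were grown in RPMI medium with serum and exposed to vemurafenib, an inhibitor of mutant BRAF kinase, at 2 µM. RNA was taken at 0, 1, 6 and 48 h and hybridised to Illumina bead arrays, with 3 arrays for each of the 8 combinations of line and time. The untreated cells are those at 0 h, so the drug and the time in culture cannot be told apart. The labels name no separate cultures, so the p-values measure the spread between arrays of a group, pooled over all 8 groups. That spread may be technical, and each tumour type is represented by 1 line.

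The arrays detected 17369 to 19843 probes each, and replicate arrays of a group correlated at 0.9778 to 0.9923. The SKMEL28 label was borne out by 7 of 9 melanocyte markers, detected on all 12 SKMEL28 arrays, where SW1736 had 0 detected on all of its arrays. MITF was still detected on 11 SW1736 arrays, at a mean log2 signal of 6.004 against 11.18 in SKMEL28. In SW1736 the thyroid markers PAX8, FOXE1 and HHEX and the keratins KRT7, KRT8, KRT18 and KRT19 were detected on all 12 arrays, whereas NKX2-1, TG and SLC5A5, which define hormone-making thyroid cells, were detected on none. HHEX and KRT18 do not separate the lines, since 12 and 11 SKMEL28 arrays detected them. TSHR was detected on 1 array of each line. The thyroid marker SLC26A4 and the epithelial marker EPCAM were detected on 3 and 4 SKMEL28 arrays and on 0 SW1736 arrays. Replicates were tighter in SKMEL28: the median pooled SD of the members was 0.105 log2 units there and 0.218 in SW1736. The SE was pooled over all 8 groups by limma, so a change in SKMEL28 is better resolved than its SE shows. A change in SW1736 is less well resolved than its SE shows.

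Little moved in the first hours. Values below are log2 signals after background correction and quantile normalization, a change is a difference of group means ± its SE from 1 limma fit to all 24 arrays (n = 3 arrays per group), and a gene was called at a Benjamini-Hochberg adjusted p under 0.05 over the 13699 genes. At 1 h limma called 0 of the 78 members in either line, where 0.175% of all genes were called in SKMEL28 and 0.212% in SW1736. At an unadjusted p under 0.05 there were 0 members in SKMEL28, against 2.88% of all genes, and 6 in SW1736, against 8.39%. At 6 h limma called 0 members in SKMEL28, against 6.9% of all genes called in either direction, and 3 had an unadjusted p under 0.05, against 17.2% of all genes. In SW1736 it called 1, against 8.7%. In 58 of the members (74.4%) the fitted 6 h change lay above 0 in SKMEL28, against 50.5% of all genes, and in 57 (73.1%) in SW1736, against 50.9%. The median 6 h change of the members was 0.0943 in SKMEL28 and 0.189 in SW1736, against 0.00269 and 0.00826 over all genes. When arrays were scaled to 1 median instead of 1 distribution, the members' medians became -0.103 and 0.0446 and those of all genes -0.134 and -0.0746, so the sign in SKMEL28 depended on the scaling.

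The gene called at 6 h was NDUFS4, a complex I subunit at the edge of the NADH-oxidising arm. Its SW1736 signals were 11.10, 10.52 and 11.01 at 0 h, 11.34, 11.38 and 11.32 at 1 h, 11.54, 11.74 and 11.47 at 6 h, and 11.41, 11.37 and 11.53 at 48 h. Every treated SW1736 array was above every untreated one, and the array of replicate 2 at 0 h was the lowest. NDUFS4 rose by 0.71 ± 0.14 at 6 h (limma adjusted p = 0.00159) and by 0.56 ± 0.14 at 48 h (adjusted p = 0.00272). In SKMEL28 its changes were 0.14 (adjusted p = 0.72) and -0.02 (adjusted p = 0.934). The line difference at 48 h was called at 0.58 ± 0.20 (adjusted p = 0.0364), and that at 6 h was not (0.57, adjusted p = 0.121). Median scaling ended the calls in SW1736, at 0.525 (adjusted p = 0.133) for 6 h and 0.291 (adjusted p = 0.319) for 48 h.

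At 48 h many subunit genes were lower in SKMEL28 and fewer in SW1736. In SKMEL28, 22 of the 78 members fell (28.2%) and 5 rose (6.41%), whereas 18.9% of all genes fell and 20.1% rose. In SW1736, 7 members fell and 6 rose, whereas 16.1% of all genes fell and 18.2% rose. Because arrays compare equal amounts of labelled RNA, fewer of these nuclear-encoded transcripts per cell and a changed mix of cells cannot be told apart. The median change of the members was -0.174 in SKMEL28 and -0.0494 in SW1736, against 0.0338 and 0.023 over all genes. All 3 treated arrays lay below all 3 untreated ones for 41 members (52.6%) in SKMEL28, against 26.7% of all genes, and for 17 (21.8%) in SW1736, against 17.7%. With median scaling the split between higher and lower calls was 2 to 22 in SKMEL28 and 1 to 15 in SW1736, in place of 5 to 22 and 6 to 7. Under that scaling 28.2% of members and 19.9% of all genes were called lower in SKMEL28, and 19.2% and 17.4% in SW1736, with members' medians of -0.288 and -0.252 and medians over all genes of -0.032 and -0.0428. With each line fitted on its own, 41 members were called in SKMEL28 (7 higher and 34 lower) and 6 in SW1736 (3 and 3). Of all genes 47.8% and 25.1% were called in those fits. In the fit to both lines the count in SW1736 was 8 without its replicate 2 at 0 h. Of the 27 calls in SKMEL28, 17 remained when any 1 array was left out, and of the 13 in SW1736, 5 did.

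**Figure D1:**
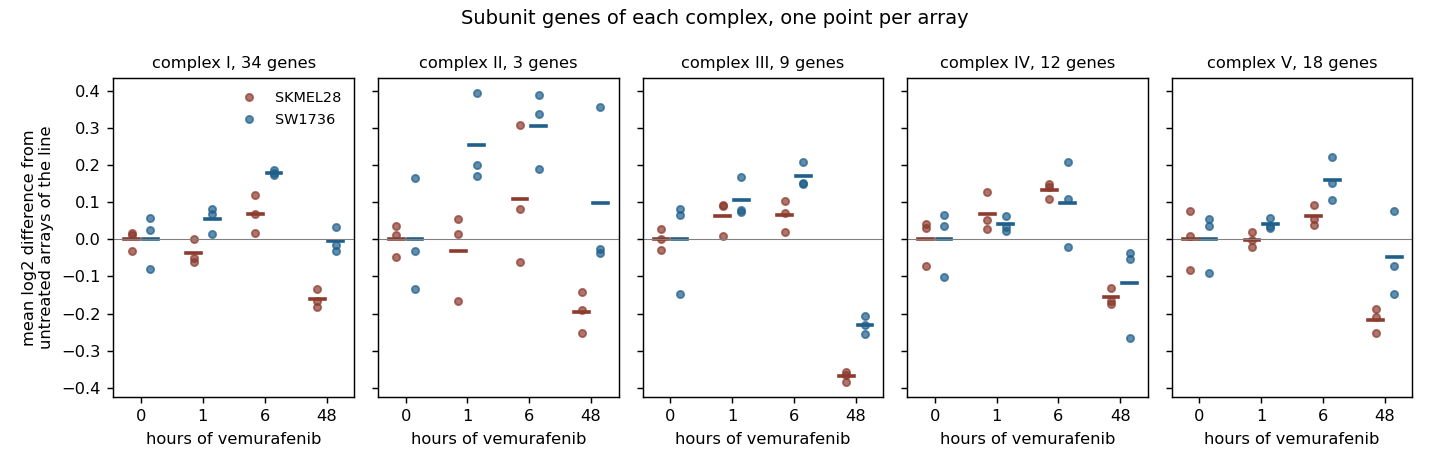
Mean log2 difference of the subunit genes of each complex from the mean of the untreated arrays of the same line (vertical axis), by hours of vemurafenib (horizontal axis, evenly spaced by group). Each point is 1 array and each line the mean of 3. With quantile normalization complex III lay lowest at 48 h in SKMEL28, at -0.385, -0.357 and -0.364. Its 3 SW1736 arrays lay at -0.254, -0.207 and -0.23. With median scaling the SKMEL28 median change was -0.321 for complex III and -0.338 for complex II.

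By complex, the medians and calls at 48 h were as follows. Of all genes 18.9% were called lower and 20.1% higher in SKMEL28, and 16.1% and 18.2% in SW1736. In SKMEL28 at 48 h the median change was -0.172 for complex I (1 gene higher and 8 lower of 34), -0.168 for complex II (0 and 1 of 3), -0.307 for complex III (0 and 3 of 9), -0.112 for complex IV (1 and 5 of 12) and -0.179 for complex V (3 and 5 of 18). In SW1736 it was 0.0376 for complex I (4 higher and 2 lower), -0.0146 for complex II (0 and 0), -0.202 for complex III (0 and 1), -0.0836 for complex IV (0 and 2) and -0.0181 for complex V (2 and 2). With median scaling the medians for complexes I to V were -0.189, -0.255, -0.382, -0.26 and -0.205 in SW1736 and -0.327, -0.338, -0.321, -0.269 and -0.249 in SKMEL28. All were then below 0 in both lines, so the sign for complex I in SW1736 is not settled. All 9 complex III genes had a fitted change below 0 in SW1736 by their brightest probes, as did 6569 of the 13699 genes. The 1 called was UQCR10, whose other probes rose (1.17 and 1.16). The 9 also include UQCRH and UQCRHL, whose probes may read each other's transcript. In SKMEL28 the arrays of complex I averaged -0.165, -0.134 and -0.183 from the untreated mean, and in SW1736 they averaged -0.032, -0.0149 and 0.0318.

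**Figure D2:**
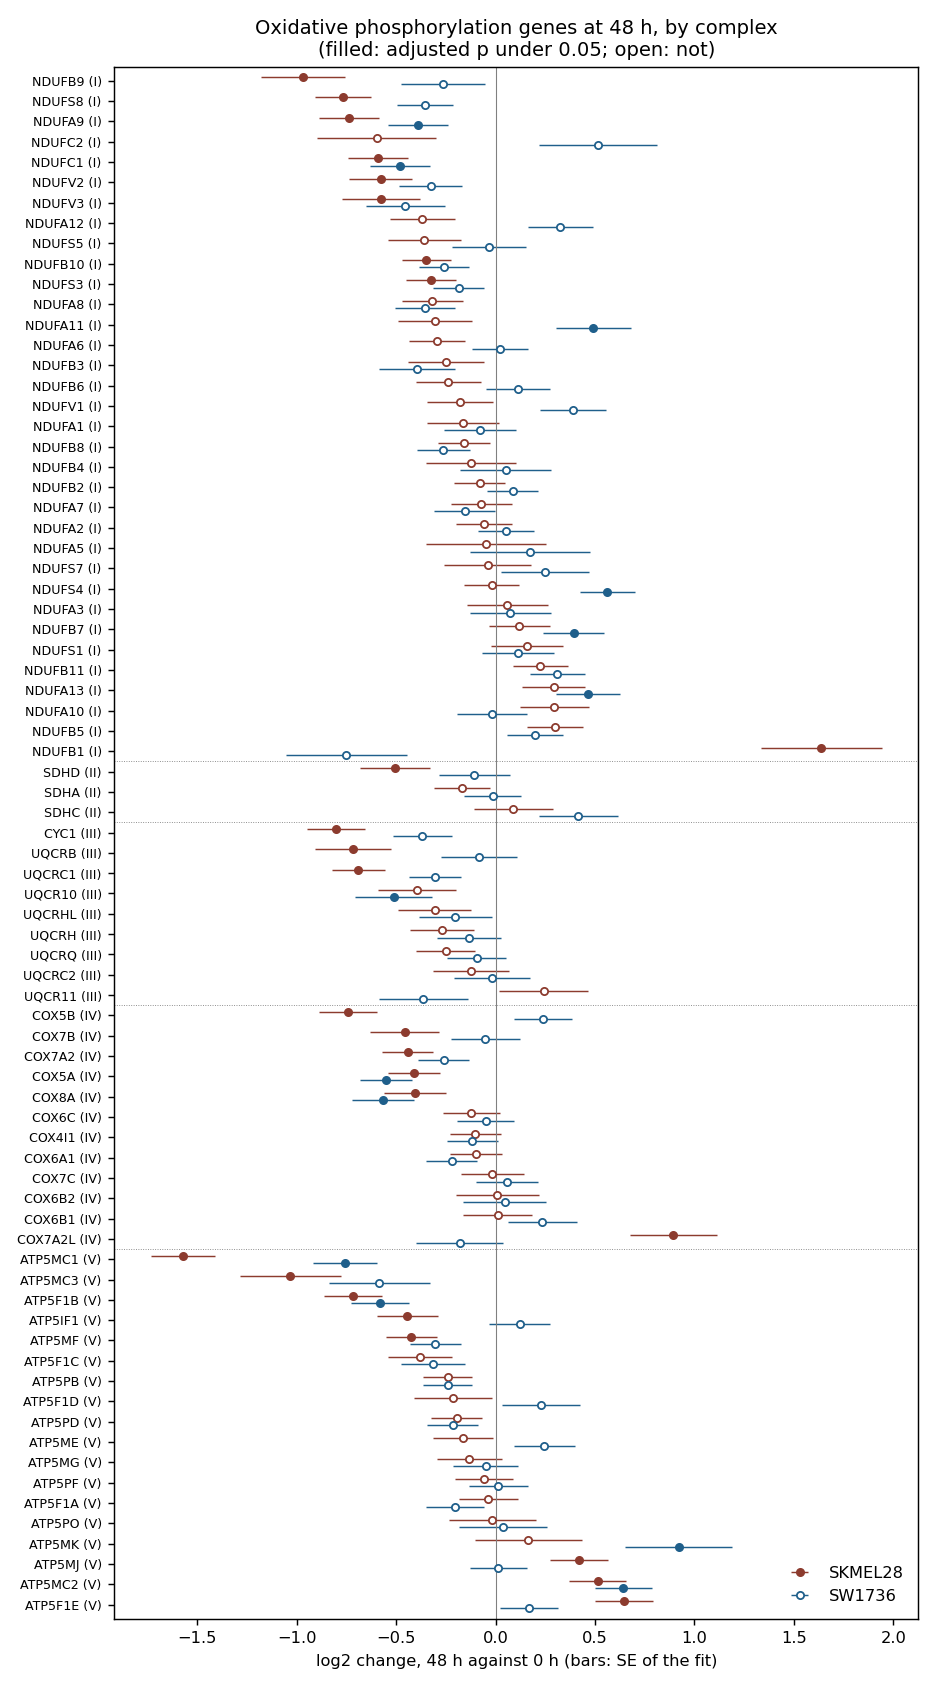
Change of each of the 76 protein-coding members from 0 to 48 h (horizontal axis, log2), ordered by complex and by the change in SKMEL28, with bars for the SE of the limma fit (3 arrays per group). Filled points passed an adjusted p of 0.05 (27 calls in SKMEL28 and 13 in SW1736); ATP5MC1 is the lowest point of both lines and NDUFB1 the highest of SKMEL28.

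In complex I, the genes that fell in SKMEL28 came from both of its arms. NDUFS8 carries iron-sulfur clusters near the site where ubiquinone binds. Its SKMEL28 signals were 12.88, 12.71 and 12.78 at 0 h and 11.97, 12.09 and 12.01 at 48 h. The groups were apart, and the change was -0.77 ± 0.14 (limma adjusted p = 0.000123). In SW1736 it was -0.36 (adjusted p = 0.055). NDUFV2, which holds a cluster of the NADH-binding module, gave 11.73, 11.69 and 11.98 at 0 h and 11.12, 11.16 and 11.39 at 48 h in SKMEL28, a fall of 0.58 ± 0.16 (adjusted p = 0.00516). The core subunits NDUFS1, NDUFS7 and NDUFV1 were not called: their changes were 0.16, -0.04 and -0.18 in SKMEL28 and 0.11, 0.25 and 0.39 in SW1736.

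NDUFB9, an accessory subunit of the membrane arm, fell most among the complex I genes. SKMEL28 signals were 11.30, 11.54 and 11.45 at 0 h and 10.42, 10.48 and 10.49 at 48 h. That is a change of -0.97 ± 0.21 (limma adjusted p = 0.000781), with no overlap. SW1736 signals were 10.29, 9.92 and 10.60 at 0 h and 9.46, 10.16 and 10.39 at 48 h, which overlapped (-0.27, adjusted p = 0.375).

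NDUFA9 and NDUFC1 were called lower in both lines. NDUFA9 is an accessory subunit at the joint of the peripheral and membrane arms, and NDUFC1 is a small accessory subunit of the membrane arm. The start of NDUFA9 is shown because its window holds letters of both the NRF1 and the YY1 motif, given in capitals in that order. It covers 250 bases before and 30 after the annotated start, on the plus strand at chr12:4648864-4649143 of GRCh38.p14, from RefSeq.
NDUFA9: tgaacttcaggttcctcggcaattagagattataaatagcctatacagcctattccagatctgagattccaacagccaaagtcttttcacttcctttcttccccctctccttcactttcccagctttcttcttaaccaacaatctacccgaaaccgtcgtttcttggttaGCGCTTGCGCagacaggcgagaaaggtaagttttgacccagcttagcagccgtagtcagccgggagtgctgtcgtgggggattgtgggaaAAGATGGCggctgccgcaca

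NDUFA9 signals in SKMEL28 were 9.94, 10.08 and 10.01 at 0 h and 9.21, 9.26 and 9.35 at 48 h, and in SW1736 10.07, 9.94 and 10.08 and then 9.73, 9.75 and 9.45. In neither line did the groups overlap. The change was -0.74 ± 0.15 in SKMEL28 (limma adjusted p = 0.00037) and -0.39 ± 0.15 in SW1736 (adjusted p = 0.0473). The SW1736 call was lost without any 1 untreated array, or without replicate 1 or 3 at 48 h, at -0.437 to -0.293. NDUFC1 signals in SKMEL28 were 9.85, 9.74 and 9.88 and then 9.34, 9.23 and 9.12, a fall of 0.59 ± 0.15 (adjusted p = 0.00274). In SW1736 they were 9.09, 9.001 and 9.23 and then 8.50, 8.63 and 8.74, a fall of 0.48 ± 0.15 (adjusted p = 0.015). This call was lost without replicate 3 at 0 h or replicate 1 at 48 h of SW1736, at -0.419 to -0.417.

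The other complex I genes that fell in SKMEL28 were NDUFV3 (-0.58, limma adjusted p = 0.0231), NDUFB10 (-0.35, adjusted p = 0.0284) and NDUFS3 (-0.33, adjusted p = 0.0463). NDUFS3, a core subunit of the peripheral arm, lost its call without any 1 of the 6 arrays, at -0.359 to -0.295. NDUFB10 lost its call without any untreated array or replicate 2 or 3 at 48 h, at -0.352 to -0.332. NDUFV3 lost it without replicate 1 at 0 h or replicate 2 or 3 at 48 h, at -0.579 to -0.446.

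NDUFB1, a small accessory subunit of the membrane arm, went the other way in SKMEL28. Its SKMEL28 signals were 5.92, 5.98 and 6.38 at 0 h and 7.81, 7.98 and 7.40 at 48 h, and it rose by 1.64 ± 0.30 (limma adjusted p = 0.000129). In SW1736 the signals were 5.41, 6.50 and 6.00 at 0 h and 4.999, 5.32 and 5.35 at 48 h, where 1 of 3 arrays detected it, and the change was -0.75 (adjusted p = 0.0605). All SW1736 arrays at 48 h were below all untreated ones, whereas all SKMEL28 arrays were above. The difference between the lines was -2.39 ± 0.43 (adjusted p = 0.000238). Without background correction the SKMEL28 change of NDUFB1 was 0.93 and the line difference -1.23.

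Besides NDUFS4, 3 complex I genes were called higher in SW1736 at 48 h. NDUFA11, NDUFA13 and NDUFB7 are accessory subunits, and NDUFA13 is also known as GRIM19. Their changes were 0.49, 0.47 (limma adjusted p = 0.0271) and 0.39 (adjusted p = 0.0494). None of the 3 calls held without each array in turn or under median scaling. NDUFA11 was lost without replicate 3 at 0 h or any 1 array at 48 h, at 0.165 to 0.502, and its untreated replicate 3 gave 10.89 beside 11.77 and 11.96. NDUFA13 was lost without replicate 1 or 2 at 0 h or replicate 3 at 48 h, at 0.317 to 0.477, and NDUFB7 without replicate 1 or 3 at 0 h or any 1 array at 48 h, at 0.23 to 0.429.

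In complex II, SDHD, which anchors the enzyme in the membrane, was called lower in SKMEL28. Its signals were 10.09, 9.95 and 10.09 at 0 h and 9.55, 9.62 and 9.45 at 48 h, without overlap. The fall was 0.51 ± 0.18 (limma adjusted p = 0.0264), and it was lost without replicate 1 or 3 at either time, at -0.513 to -0.46. SDHA, which carries the flavin and oxidises succinate, and SDHC, the other anchor, were not called in either line.

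In complex III the catalytic subunit cytochrome c1 and a core protein fell together in SKMEL28. CYC1, which encodes cytochrome c1, gave 12.14, 11.94 and 12.15 at 0 h and 11.24, 11.35 and 11.23 at 48 h. CYC1 fell by 0.80 ± 0.15 (limma adjusted p = 0.000125), and in SW1736 its change was -0.37 (adjusted p = 0.0592). UQCRC1, a core protein, gave 11.26, 11.29 and 11.06 and then 10.53, 10.56 and 10.45, and fell by 0.69 ± 0.13 (adjusted p = 0.000184), against -0.30 in SW1736 (adjusted p = 0.0803). For both genes the SKMEL28 groups were apart by more than the spread within either. UQCRC2, the other core protein, changed by -0.13 in SKMEL28 and -0.02 in SW1736 and was not called.

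UQCRB, the subunit that helps bind ubiquinone, gave 10.03, 10.19 and 10.21 at 0 h and 9.43, 9.35 and 9.49 at 48 h in SKMEL28, a fall of 0.72 ± 0.19 (limma adjusted p = 0.00426). With the mean of its detected probes in place of the brightest the change was -0.244 (adjusted p = 0.288). UQCR10 was the complex III gene called in SW1736, with 8.57, 9.09 and 9.24 at 0 h and 8.33, 8.56 and 8.47 at 48 h and a change of -0.51 ± 0.20 (adjusted p = 0.0458). Its other probes went the opposite way, at 1.17 (adjusted p = 0.000114) and 1.16 (adjusted p = 7e-04), so no direction can be given for UQCR10. The call was also lost without replicate 2 or 3 at 0 h or any 1 array at 48 h, at -0.568 to -0.375.

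In complex IV, COX5A and COX8A were called lower in both lines. COX5A is an accessory subunit that faces the matrix, and COX8A is the small membrane subunit expressed in most tissues. The start of COX8A is shown because it holds the ETS motif, which runs on the minus strand and so appears in capitals as its reverse complement. The window is chr11:63974370-63974649 on the plus strand of GRCh38.p14, from RefSeq.
COX8A: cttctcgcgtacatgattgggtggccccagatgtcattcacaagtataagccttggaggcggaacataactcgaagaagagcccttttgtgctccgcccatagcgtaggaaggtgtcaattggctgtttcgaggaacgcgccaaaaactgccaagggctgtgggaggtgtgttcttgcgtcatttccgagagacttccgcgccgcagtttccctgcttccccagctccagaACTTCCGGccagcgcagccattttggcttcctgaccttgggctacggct

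COX5A signals were 13.14, 12.93 and 12.99 at 0 h and 12.60, 12.64 and 12.59 at 48 h in SKMEL28, and 12.67, 12.89 and 12.58 and then 12.21, 12.23 and 12.03 in SW1736. The groups were apart in both lines. COX5A fell by 0.41 ± 0.13 in SKMEL28 (limma adjusted p = 0.0151) and by 0.55 ± 0.13 in SW1736 (adjusted p = 0.00197). Without replicate 1 at 0 h the SKMEL28 change was -0.35 (adjusted p = 0.0752), and with median scaling it was -0.427 (adjusted p = 0.0762). COX8A gave 12.68, 12.58 and 12.45 and then 12.23, 12.16 and 12.11 in SKMEL28, and 12.90, 13.11 and 12.36 and then 12.22, 12.41 and 12.05 in SW1736, where the groups overlapped. It fell by 0.41 ± 0.16 in SKMEL28 (adjusted p = 0.0427) and by 0.57 ± 0.16 in SW1736 (adjusted p = 0.00642). The SKMEL28 call of COX8A was lost without replicate 1 or 2 at 0 h or any 1 array at 48 h, at -0.437 to -0.35, and under median scaling (adjusted p = 0.0523), and the SW1736 call without replicate 2 at 0 h, at -0.407 (adjusted p = 0.0574).

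COX5B, which binds zinc on the matrix side, fell in SKMEL28 and not in SW1736. SKMEL28 signals were 13.63, 13.52 and 13.42 at 0 h and 12.90, 12.71 and 12.74 at 48 h, a change of -0.74 ± 0.15 (limma adjusted p = 0.00028). SW1736 signals were 12.44, 12.92 and 12.59 and then 13.08, 12.85 and 12.74, which overlapped (0.24, adjusted p = 0.231). The line difference was 0.98 ± 0.21 (adjusted p = 0.00132), and 0.794 (adjusted p = 0.0792) with median scaling. COX7A2 fell by 0.44 ± 0.13 in SKMEL28 (adjusted p = 0.0079), from 13.05, 13.01 and 13.18 to 12.70, 12.58 and 12.65, though under median scaling it stood at -0.457 (adjusted p = 0.0767). COX7B fell by 0.46 ± 0.17 there (adjusted p = 0.0401), a call lost without any untreated array or replicate 1 or 2 at 48 h, at -0.505 to -0.351.

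COX7A2L, which is known to tie complexes III and IV into supercomplexes, rose in SKMEL28. Its signals were 11.33, 11.24 and 11.37 at 0 h and 12.34, 12.15 and 12.14 at 48 h, a rise of 0.89 ± 0.22, or 1.86-fold (limma adjusted p = 0.002). In SW1736 they were 10.31, 10.30 and 10.79 and then 9.66, 10.49 and 10.70, with overlap and a change of -0.18 (adjusted p = 0.581). The difference between the lines was -1.07 ± 0.31 (adjusted p = 0.0143). COX4I1 and COX6C, further complex IV subunits of most tissues, were not called, at -0.10 and -0.12 in SKMEL28 and -0.12 and -0.05 in SW1736.

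COXFA4, formerly named NDUFA4 and since assigned to complex IV, is not reached by the names above and is given apart. SKMEL28 signals were 12.88, 12.66 and 12.76 at 0 h and 12.28, 12.29 and 12.28 at 48 h, a fall of 0.49 ± 0.12 (limma adjusted p = 0.00217). SW1736 signals were 12.38, 12.51 and 12.63 and then 12.95, 13.07 and 12.86, a rise of 0.46 ± 0.12 (adjusted p = 0.00429). The groups were apart in both lines and in opposite directions, and the line difference was 0.94 ± 0.17 (adjusted p = 0.000223). The SW1736 rise was not called with median scaling (0.343, adjusted p = 0.23).

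In complex V the genes for the c subunit of the rotor moved apart. ATP5MC1, ATP5MC2 and ATP5MC3 encode the same mature protein behind different import signals. ATP5MC1 had the lowest fitted change of all members in both lines. Start windows of ATP5MC1 and ATP5MC2 are shown because the genes share a product and moved in opposite directions by their brightest probes. The ATP5MC1 window lies on the plus strand at chr17:48892537-48892816 and that of ATP5MC2 on the minus strand at chr12:53676054-53676333 of GRCh38.p14, both from RefSeq. The capitals in ATP5MC1 mark an E-box. The ATP5MC2 window lies inside the span of the gene (53665170-53681423), so it does not cover the outermost start.
ATP5MC1: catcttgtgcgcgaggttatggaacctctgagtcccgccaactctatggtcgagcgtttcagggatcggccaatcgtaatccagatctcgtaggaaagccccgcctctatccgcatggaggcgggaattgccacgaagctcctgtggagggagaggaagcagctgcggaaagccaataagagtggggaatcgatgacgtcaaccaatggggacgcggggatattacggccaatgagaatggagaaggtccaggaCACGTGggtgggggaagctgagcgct
ATP5MC2: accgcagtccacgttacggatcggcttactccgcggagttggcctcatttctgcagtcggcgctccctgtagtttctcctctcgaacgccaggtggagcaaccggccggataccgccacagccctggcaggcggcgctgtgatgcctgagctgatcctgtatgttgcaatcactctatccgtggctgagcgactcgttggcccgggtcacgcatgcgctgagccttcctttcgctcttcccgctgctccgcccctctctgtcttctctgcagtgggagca

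ATP5MC1 signals in SKMEL28 were 11.19, 11.06 and 11.34 at 0 h, 10.91, 11.03 and 11.19 at 1 h, 11.16, 11.19 and 11.002 at 6 h, and 9.61, 9.65 and 9.61 at 48 h. The 3 arrays at 48 h were below the 9 earlier ones. ATP5MC1 fell by 1.57 ± 0.16, or 2.97-fold (limma adjusted p = 3.89e-08). In SW1736 it went from 11.02, 10.69 and 11.14 to 10.07, 9.97 and 10.55, a fall of 0.76 ± 0.16, or 1.69-fold (adjusted p = 0.000771), again with no overlap. The fall was smaller in SW1736 by 0.81 ± 0.23 (adjusted p = 0.0128), a difference not called with median scaling (0.79, adjusted p = 0.0507). Its dimmer probe gave -1.23 (adjusted p = 1.72e-05) in SKMEL28 and -0.42 (adjusted p = 0.107) in SW1736.

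ATP5MC2 rose in both lines by its brightest probe. Its signals went from 11.71, 11.73 and 11.82 to 12.21, 12.33 and 12.25 in SKMEL28 and from 10.85, 10.96 and 11.18 to 11.32, 11.83 and 11.76 in SW1736, without overlap in either. The rise was 0.51 ± 0.15, or 1.43-fold, in SKMEL28 (limma adjusted p = 0.0065) and 0.64 ± 0.15, or 1.56-fold, in SW1736 (adjusted p = 0.00121). Neither was called with median scaling, at 0.376 (adjusted p = 0.171) and 0.378 (adjusted p = 0.176), and a dimmer probe of ATP5MC2 gave -0.49 (adjusted p = 0.133) in SKMEL28. ATP5MC3 went from 7.74, 8.02 and 8.06 to 7.06, 6.65 and 7.01 in SKMEL28 and fell by 1.03 ± 0.25, or 2.05-fold (adjusted p = 0.00218). In SW1736 it went from 6.31, 6.29 and 6.14 to 6.06, 4.73 and 6.20, with overlap and a change of -0.58 (adjusted p = 0.0807).

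ATP5F1B, the catalytic beta subunit, fell in both lines. It went from 13.95, 13.80 and 13.94 to 13.19, 13.24 and 13.10 in SKMEL28 and from 14.20, 13.58 and 13.91 to 13.16, 13.53 and 13.26 in SW1736. No treated array reached an untreated one in either line. The changes were -0.72 ± 0.15 (limma adjusted p = 0.000326) and -0.58 ± 0.15 (adjusted p = 0.00301). ATP5F1A, the alpha subunit that forms the catalytic head with it, had changes of -0.04 and -0.20 and was not called by its brightest probe, though its other probe was called lower in SW1736 (-0.41, adjusted p = 0.0189). Not called either was the gamma subunit ATP5F1C, at -0.38 (adjusted p = 0.0682) and -0.31 (adjusted p = 0.146).

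ATP5F1E, the epsilon subunit of the rotor stalk, rose in SKMEL28 from 11.15, 11.34 and 11.34 to 11.80, 12.04 and 11.93, by 0.64 ± 0.15 (limma adjusted p = 0.000972), and was not called with median scaling (0.454, adjusted p = 0.0703). ATP5MJ, a small membrane subunit, was called higher at 0.42 ± 0.14 (adjusted p = 0.0231), lost without replicate 2 at 0 h or replicate 1 or 2 at 48 h, at 0.367 to 0.418, and with median scaling (0.243, adjusted p = 0.426). ATP5MF was called lower at -0.42 ± 0.13 (adjusted p = 0.0108), and at -0.376 without replicate 2 at 48 h (adjusted p = 0.0521). ATP5IF1, the inhibitor of reverse ATP hydrolysis, was called lower by its brightest probe (-0.44, adjusted p = 0.0247) and higher by another (0.63, adjusted p = 0.00712), so no direction can be given. That first call was also lost without replicate 1 or 3 at either time, at -0.455 to -0.386. ATP5MK, which helps hold ATP synthase dimers together, rose in SW1736 from 7.29, 7.22 and 8.05 to 8.15, 8.28 and 8.89, by 0.92 ± 0.27, or 1.89-fold (adjusted p = 0.00953). Without SW1736 replicate 2 at 0 h or replicate 3 at 48 h it was not called, at 0.695 to 0.771.

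**Figure D3:**
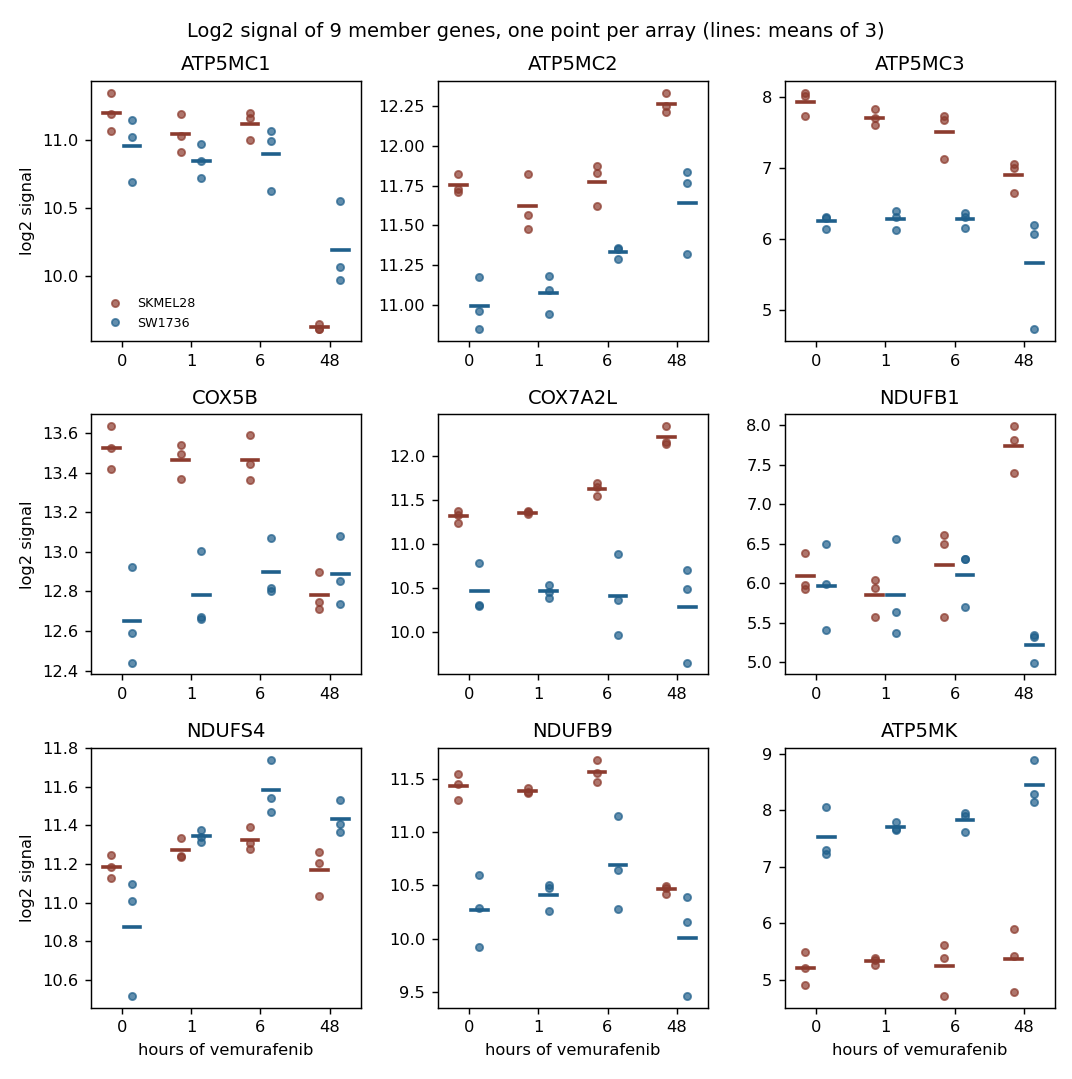
Log2 signal (vertical axis, a separate scale for each gene) of 9 members by hours of vemurafenib (horizontal axis, evenly spaced by group), with 1 point per array and a line for the mean of 3. ATP5MC1 lay lower at 48 h than at 0 h in both lines, and COX7A2L and NDUFB1 rose in SKMEL28, with line differences of -1.07 and -2.39.

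Across the lines, 6 members were called lower in both at 48 h: ATP5F1B, ATP5MC1, COX5A, COX8A, NDUFA9 and NDUFC1. They were 27.3% of the 22 lower calls in SKMEL28 and 85.7% of the 7 in SW1736. This overlap was not counted over all genes, so it is not shown to be particular to the members. With SW1736 fitted alone, the calls there were lost for NDUFA9 (limma adjusted p = 0.162), NDUFC1 (adjusted p = 0.0604) and COX8A (adjusted p = 0.0524). The fitted 48 h change had the same sign in both lines for 69.2% of members and 66.2% of all genes. ATP5MC2 was called higher in both, and 45 members were called in neither. Over the 78 genes the 48 h changes of the lines correlated at a Pearson r of 0.356 and a Spearman rho of 0.529, or 0.552 and 0.587 without NDUFB1, against 0.527 and 0.466 over all genes. These are descriptions across genes measured on the same arrays, and genes are not independent replicates.

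The change itself differed between the lines for 7 members at 48 h, where 21% of all genes were called (11.5% more positive in SW1736 and 9.55% more negative). In SW1736 the change was more positive for ATP5MC1, COX5B, NDUFS4, NDUFA11 and NDUFA12, and more negative for COX7A2L and NDUFB1. NDUFA12 and NDUFA11 changed by -0.37 and -0.30 in SKMEL28 and by 0.33 and 0.49 in SW1736, differences of 0.70 (limma adjusted p = 0.0336) and 0.80 (adjusted p = 0.0342). With median scaling 1 member was called more positive and 2 more negative, against 8.53% and 6.64% of all genes. Of the 7, only COX7A2L and NDUFB1 were called under each alternative and without each array. NDUFS4 was lost without any untreated SKMEL28 array, SKMEL28 replicate 1 or 2 at 48 h, SW1736 replicate 2 at 0 h or SW1736 replicate 3 at 48 h, at 0.403 to 0.612. NDUFA11 was lost without SKMEL28 replicate 1 or 3 at 0 h, SW1736 replicate 3 at 0 h or any array of either line at 48 h, at 0.47 to 0.807. NDUFA12 was lost without SKMEL28 replicate 3 or SW1736 replicate 1 at 0 h, any SKMEL28 array at 48 h or SW1736 replicate 2 or 3 at 48 h, at 0.481 to 0.714. The count of 7 became 4 without SKMEL28 replicate 3 at 0 h or replicate 1 or 2 at 48 h. At 6 h limma called 0 differences, against 4.26% of all genes, and 4 members had an unadjusted p under 0.05, against 14.9%.

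**Figure D4:**
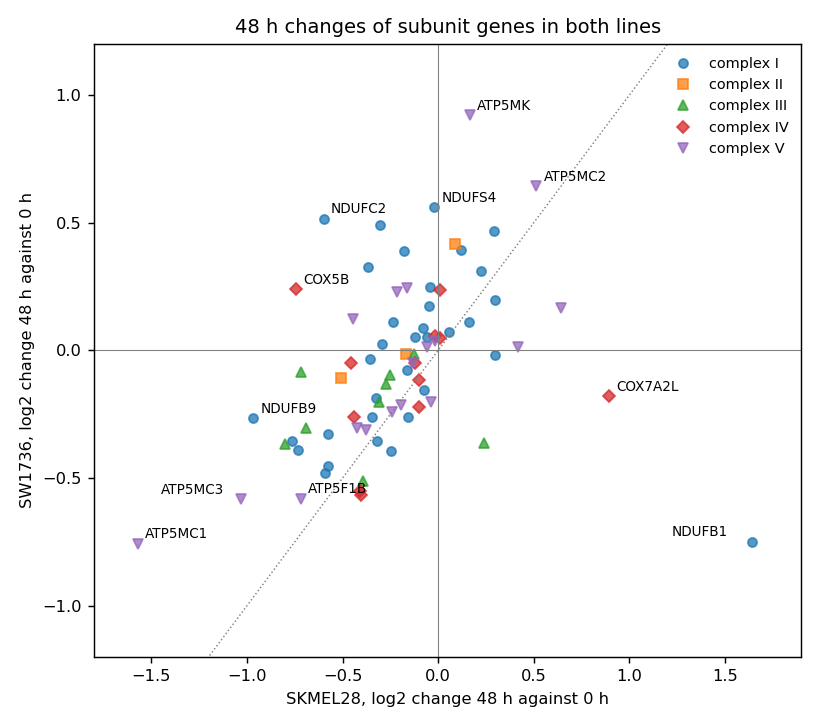
Change from 0 to 48 h in SW1736 (vertical axis, log2) against SKMEL28 (horizontal axis, log2) for the 76 protein-coding members, coloured by complex, with the line of equal change dotted. NDUFB1 and COX7A2L lie to the lower right, and ATP5MC1 lies lowest in both lines except for the like value of NDUFB1 in SW1736 (-0.75).

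Before treatment the lines also differed in these genes. In SW1736 10 members were called higher and 28 lower than in SKMEL28, whereas 25.5% of all genes were higher and 24.8% lower. The median difference of the members was -0.264, against 0.00687 over all genes. Genes were lower in SW1736 in each complex: 12 of complex I, 1 of complex II, 3 of complex III, 6 of complex IV and 5 of complex V, beside 5, 2, 0, 1 and 2 higher. The pseudogene UQCRBP1 was the remaining lower call. Of the 38 calls, 26 remained without any 1 array. With median scaling 6 members were higher (7.69%) and 23 lower (29.5%), against 23.3% and 23.5% of all genes.

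ATP5MC3 gave 7.74, 8.02 and 8.06 in untreated SKMEL28 and 6.31, 6.29 and 6.14 in untreated SW1736, and was lower there (-1.69 ± 0.25, limma adjusted p = 5.18e-06, and -1.01 without background correction). ATP5ME, a membrane subunit at the dimer interface of ATP synthase, gave 12.38, 12.37 and 12.42 against 11.08, 11.19 and 11.27 (-1.21 ± 0.15, adjusted p = 4.08e-07). NDUFB9 gave 11.30, 11.54 and 11.45 against 10.29, 9.92 and 10.60 (-1.16 ± 0.21, adjusted p = 6.68e-05). SDHC gave 9.27, 9.49 and 9.04 against 8.35, 8.17 and 8.36 (-0.97 ± 0.20, adjusted p = 0.000215). In none of these did the lines overlap.

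In the fit with background correction, ATP5MK had the largest excess of the members in untreated SW1736. Its signals were 5.48, 4.90 and 5.21 in SKMEL28, where 1 of 3 arrays detected it, and 7.29, 7.22 and 8.05 in SW1736, a difference of 2.32 ± 0.27 (limma adjusted p = 1.02e-07). Without background correction the difference for ATP5MK was 1.14, so its size depends on that step. NDUFB6, an accessory subunit of the membrane arm of complex I, gave 9.82, 9.89 and 10.09 against 10.88, 10.80 and 11.25 (1.04 ± 0.16, adjusted p = 7.98e-06). NDUFB11, another of that arm, gave 10.82, 10.76 and 10.54 against 11.75, 11.66 and 11.64 (0.98 ± 0.14, adjusted p = 2.65e-06). SDHA gave 10.06, 10.05 and 10.11 against 10.46, 10.64 and 10.74 (0.54 ± 0.14, adjusted p = 0.00275), opposite in direction to the brightest probe of SDHC, whose other probe was not called (-0.37, adjusted p = 0.152). NDUFB4 was not detected on any untreated SW1736 array and was at least 1.44-fold lower there, by its brightest probe. The call was lost without SKMEL28 replicate 2 or SW1736 replicate 1, at -0.591 to -0.544, and with the mean of its probes, at -0.267 (adjusted p = 0.229), and the other probe of NDUFB4 gave 0.23 (adjusted p = 0.385).

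Several nuclear genes that maintain and transcribe mitochondrial DNA were lower at 48 h. TFAM, which packages mitochondrial DNA and starts its transcription, gave 9.32, 9.39 and 9.29 at 0 h and 7.996, 8.18 and 8.01 at 48 h in SKMEL28, and 10.45, 10.44 and 10.70 and then 9.16, 9.34 and 9.57 in SW1736. The groups were far apart in both lines. TFAM fell by 1.27 ± 0.15, or 2.41-fold, in SKMEL28 (limma adjusted p = 2.67e-07) and by 1.17 ± 0.15, or 2.25-fold, in SW1736 (adjusted p = 1.37e-06). TWNK, the helicase of mitochondrial DNA replication, fell by 1.07 ± 0.22 (adjusted p = 0.000409) and 0.96 ± 0.22 (adjusted p = 0.00144). The mitochondrial RNA polymerase POLRMT was not called, at -0.37 (adjusted p = 0.145) and 0.10 (adjusted p = 0.751).

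TFB1M, which methylates the small mitochondrial ribosomal RNA, and TFB2M, which opens the promoter with POLRMT, fell in SKMEL28. TFB1M went from 9.82, 9.73 and 9.84 to 8.33, 8.49 and 8.34, a change of -1.41 ± 0.19 (limma adjusted p = 1.75e-06), and was already lower at 6 h (-1.06, adjusted p = 0.00048). In SW1736 it went from 8.77, 9.07 and 8.90 to 8.52, 8.45 and 8.49 (-0.43, adjusted p = 0.0846). The line difference for TFB1M was 0.99 ± 0.27 (adjusted p = 0.00924). TFB2M changed by -1.14 ± 0.17 in SKMEL28 (adjusted p = 6.05e-06) and by -0.34 in SW1736 (adjusted p = 0.127). Its line difference of 0.81 (adjusted p = 0.0156) was not called without SKMEL28 replicate 2 at 48 h (0.708, adjusted p = 0.0507) or with median scaling (0.799, adjusted p = 0.056).

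**Figure D5:**
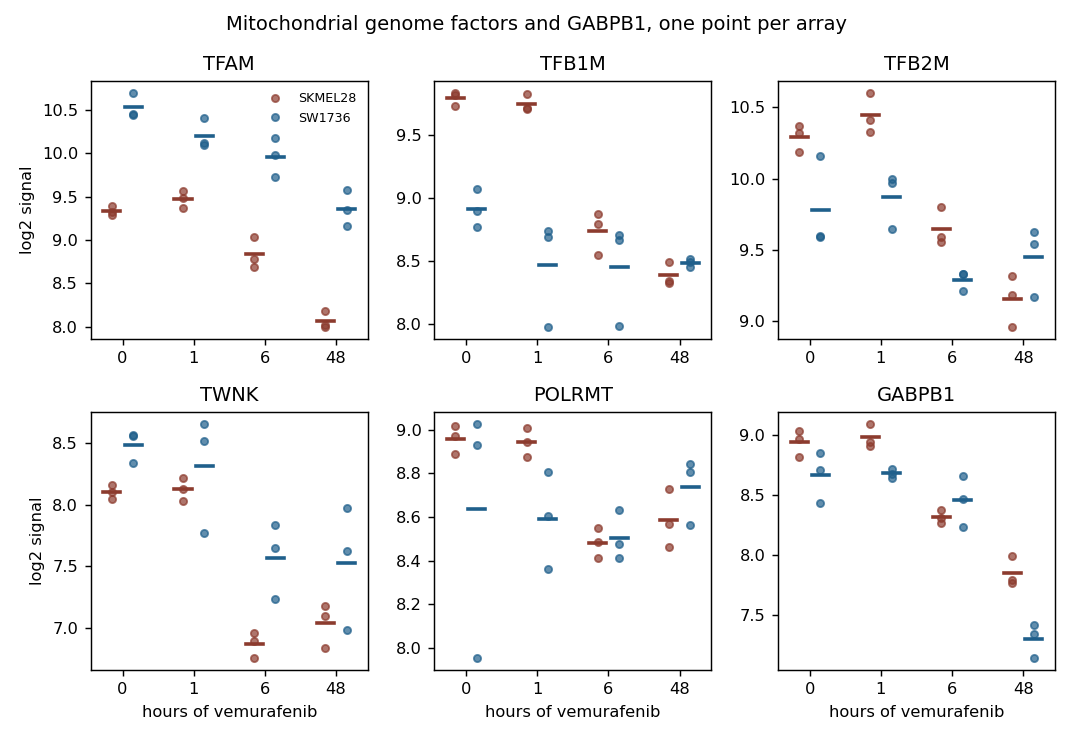
Log2 signal (vertical axis, a separate scale for each gene) of TFAM, TFB1M, TFB2M, TWNK, POLRMT and GABPB1 by hours of vemurafenib (horizontal axis, evenly spaced by group), with 1 point per array and a line for the mean of 3. TFAM and GABPB1 were lower at 48 h in both lines (TFAM by 1.27 and 1.17), whereas POLRMT was not called.

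Of the factors known to switch on nuclear oxidative phosphorylation genes, GABPB1, the partner subunit of the ETS factor GABPA, fell in both lines, by 1.09 ± 0.14 in SKMEL28 (limma adjusted p = 9.6e-07) and by 1.36 ± 0.14 in SW1736 (adjusted p = 4.79e-08). GABPA, NRF1, ESRRA and YY1 were not called in either line at 48 h. NRF1 was detected on at most 2 of 3 arrays in any group, so its lack of a call says little. PPARGC1B was called lower in SKMEL28 at 48 h (-1.2), where 1 of 3 arrays detected it, and gave -0.508 without background correction. ESRRG was called higher in SW1736 at 48 h (1.26), but not with the mean of its probes (0.45, limma adjusted p = 0.0745). PPARGC1A, the coactivator PGC-1alpha, was detected on at most 1 of 3 arrays in any group and was not called, at 0.12 and -0.43, while MITF was called higher in SKMEL28 (0.86 ± 0.21, adjusted p = 0.00182). MYC fell in both lines, with changes in SKMEL28 and SW1736 of -2.34 (adjusted p = 1.69e-10) and -2.01 (adjusted p = 4.78e-09) at 6 h and of -0.84 (adjusted p = 0.000106) and -1.10 (adjusted p = 5.15e-06) at 48 h. HIF1A, which shifts cells from respiration to glycolysis at low oxygen, fell in SKMEL28 from 10.91, 11.01 and 10.92 to 9.43, 9.44 and 9.50 and rose in SW1736 from 8.59, 8.65 and 8.59 to 10.14, 9.86 and 10.59. The difference between the lines was 3.08 ± 0.27 (adjusted p = 1.14e-08). EPAS1, another of the listed regulators, rose in SKMEL28 from 7.22, 7.18 and 7.14 to 8.89, 8.89 and 8.79. Its SW1736 signals went from 10.09, 10.23 and 10.29 to 10.38, 10.83 and 11.17.

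Of 29 detected regulators (30 listed), 10 fell and 2 rose in SKMEL28 at 48 h and 8 fell and 3 rose in SW1736, and at 6 h 9 fell and 1 rose in SKMEL28 and 5 fell and 0 rose in SW1736. At 6 h 4.25% of all genes fell and 2.65% rose in SKMEL28, and 4.67% fell and 4.03% rose in SW1736. Of 45 detected assembly factors (46 listed), which build the complexes, 10 fell and 5 rose in SKMEL28 and 12 fell and 6 rose in SW1736, with median changes of -0.126 and -0.0807. Of 20 detected genes of protein import and carriers (23 listed), 10 fell and 1 rose in SKMEL28 and 12 fell and 1 rose in SW1736, with medians of -0.414 and -0.485. Among these SLC25A4, a carrier that exchanges ADP for ATP, fell by 1.34 ± 0.18 in SKMEL28 and by 0.94 ± 0.18 in SW1736. TOMM40, the pore of the outer membrane import complex, fell by 1.60 and 1.00, and HSPD1, the matrix chaperonin, by 1.01 and 1.02. Of 23 detected genes of the citric acid cycle and pyruvate metabolism (27 listed), 8 fell and 3 rose in SKMEL28 and 4 fell and 3 rose in SW1736. Of 13 genes of coenzyme Q synthesis, 4 fell and 2 rose in SKMEL28 and 3 fell and 0 rose in SW1736. Of 21 detected genes of glycolysis (22 listed), 15 fell and 0 rose in SKMEL28, with a median of -1.06, and 11 fell and 2 rose in SW1736, with a median of -0.475. The shares of all genes that fell and rose at 48 h, given with the members' counts, are the background for the 48 h counts.

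The members with several detected probes had 23 probes besides the brightest, which were tested in a fit of all detected probes. At 48 h 17 of the 23 gave the same call as the brightest probe in SKMEL28 and 14 in SW1736. In SKMEL28 other probes of ATP5F1D (-0.88, limma adjusted p = 0.000187) and NDUFB6 (-0.44, adjusted p = 0.0248) were called lower where the brightest was not, at -0.21 and -0.24. ATP5F1D encodes the delta subunit of the rotor stalk. In SW1736 other probes of the membrane subunits ATP5MG (0.94, adjusted p = 0.00193) and ATP5ME (0.79, adjusted p = 0.000521) were called higher and those of ATP5PB (-0.48, adjusted p = 0.0432) and NDUFA10 (-0.62, adjusted p = 0.0292) lower, where the brightest gave -0.05, 0.25, -0.24 and -0.02 and were not called. For these genes the call therefore depends on the probe. The other probe of ATP5MF gave -0.28 (adjusted p = 0.146) in SKMEL28, where the brightest was called lower. In untreated cells another probe of ATP5MC1 was lower in SW1736 (-1.12, adjusted p = 3.06e-05), while the brightest gave -0.25 (adjusted p = 0.236).

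Windows around a transcription start, from 250 bases before to 50 after, were held for 63 of the 78 members. They came from a set of 35116 windows of RefSeq on GRCh38.p14, and 5 motifs were searched on both strands. The set is not limited to genes detected here, whereas all members were detected. The palindromic motif of NRF1, searched with a free base within it, was found in 15 of the 63 (23.8%), against 5.78% of all windows. CCGGAAGT, an ETS motif, was found in 10 (15.9%), against 4.14%. AAGATGGC, a YY1 motif, was found in 10 (15.9%), against 2.89%. TCAAGGTCA, a motif of estrogen-related receptors, was found in 1 (1.59%), against 0.353%, and the E-box CACGTG in 7 (11.1%), against 7.26%. No member's window held overlapping matches of different motifs, and 2 held both the NRF1 and the ETS motif. In NDUFA9 the NRF1 match begins at offset -80 from the annotated start and the YY1 match at 10, in COX8A the ETS match begins at -19, and in ATP5MC1 the E-box begins at 4. The ATP5MC2 window, which lies inside the gene, held none of the 5. A match is a match of letters and not a measured site.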

How the data were processed

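The deposited intensity of each probe and its detection p-value came from the authors' table of raw bead-array signals, per the file headers. The submitters' processing notes name Partek, and the authors' log2 value table equalled the log2 of quantile-normalised raw signals within 0.008, with all 24 columns matching their own array best. RNA was extracted with Trizol and RNeasy columns and labelled as biotinylated cRNA, per the labels' protocols. Chip and scan day are not given in the sources used here.

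Signals were corrected with limma 3.58.1 in R 4.3.3 (normexp with detection p-values, offset 16), put on log2 and quantile normalised. The filter, a detection p under 0.05 on 3 or more arrays, left 26673 of 47231 probes. GEO's annotation gave 30113 probes 1 symbol, of which 30074 matched a current gene, 8 several and 17110 none. The brightest probe stood for each of 13699 genes; other probes of members were compared with it in a fit of all detected probes. The fit had 8 group means, moderated variances (16 residual and 6.41 prior degrees of freedom) and Benjamini-Hochberg adjustment within each of 9 comparisons. Arrays carry no read depth, so their number limits precision. The code was tested on simulated data. Genes described singly are, per comparison, up to 10 members with the largest called rise and 10 with the largest called fall, plus core subunits, isoforms, ATP5IF1 and listed regulators; further called members and COXFA4, SLC25A4, TOMM40 and HSPD1 were added after their values were seen. Members and lists were chosen with earlier results of these data known. Other settings were the authors' values, no background correction, median scaling, no filter, a stricter filter, the mean of probes, array weights, each line alone, the replicate number as a block and leaving out each array.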

Additional observations from a re-analysis of the deposited data

Results flagged for a closer look

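The 48 h change differed between the lines, by the interaction term of the limma fit, for 7 members. As SW1736 minus SKMEL28 on the log2 scale, the difference was 0.81 for ATP5MC1 (adjusted p = 0.0128), 0.98 for COX5B (adjusted p = 0.00132), 0.58 for NDUFS4 (adjusted p = 0.0364), 0.80 for NDUFA11 (adjusted p = 0.0342), 0.70 for NDUFA12 (adjusted p = 0.0336), -1.07 for COX7A2L (adjusted p = 0.0143) and -2.39 for NDUFB1 (adjusted p = 0.000238). The last rests on a dim probe, detected on 1 of 3 SW1736 arrays at 48 h.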

How the results depend on the processing

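Counts are members called of 78, and percentages are the share of all genes called in the same setting. For SKMEL28 at 6 h (0 in the limma fit) the count was 1 without background correction and with the authors' values (7.79%). It was 3 with the line fitted alone (13.4%) and with array weights (15%). For SKMEL28 at 48 h (27) it was 41 with the line alone (47.8%) and 43 with array weights (51.1%). For SW1736 at 6 h (1) it was 3 without background correction and with the authors' values (11.1%) and with the mean of probes (8.89%). With median scaling it was 0 (6.69%). For SW1736 at 48 h (13) it was 21 without background correction and with the authors' values (36%) and 20 with the mean of probes (34.1%). It was 6 with the line alone (25.1%) and with array weights (25.8%). The 6 h difference between lines (0) gave 1 without background correction and with the authors' values (5.31%). The 48 h difference (7) gave 12 in these same settings (23.1%) and 3 with median scaling (15.2%). ATP5IF1 in SKMEL28 and UQCR10 in SW1736 at 48 h turned to 0.0912 and 0.606 with the mean of probes, where their probes disagree; the cause of the other shifts was not tested.

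Leaving out 1 array gave 19 to 22 calls for SKMEL28 at 48 h, 1 to 2 for SW1736 at 6 h, 8 to 14 for SW1736 at 48 h, 4 to 8 for the 48 h difference (4 without SKMEL28 replicate 3 at 0 h, or 1 or 2 at 48 h) and 31 to 38 for untreated cells, and 0 to 0 elsewhere. After removal of group means, same-numbered untreated and treated arrays correlated at -0.0228 to 0.0596 in SKMEL28, so no pairing was seen there. In SW1736 same-numbered arrays correlated at 0.00806 to 0.18 and differently numbered ones at -0.129 to 0.0568. Pairing in SW1736 is therefore not settled. With the replicate block the count was 28 for SKMEL28 at 48 h (40% of all genes called). It was 2 for SW1736 at 6 h (9.44%) and 14 for SW1736 at 48 h (35.4%). It was 8 for the 48 h difference (22.1%) and 40 for untreated cells (51.1%). Of 86 single calls, 59 held and 27 were lost with median scaling, and 0 reversed. Precision is limited by 3 arrays per group, and dim probes such as NDUFB1, NDUFB4 and ATP5MK are near background in 1 of the lines.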
